A study of Homo sapiens with 12 samples.

Results

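The regions described here are the acetylated-RNA peaks on genes whose symbol is ZNF followed by a digit. They were chosen by the gene symbol alone, from 6 deposited peak lists. There were 1413 such peaks on 358 genes, of 61804 peaks on 10870 genes in all. The cells were HaCaT, an established line of human keratinocytes, the main cell type of the epidermis. Both groups were HaCaT cells that received plasmids. In the overexpression group these carried NAT10, the enzyme that acetylates cytidine in RNA, and in the control group they were empty vector. Each group had 3 replicates, with an antibody pulldown and an input library from each, or 12 libraries in all, and the authors made 1 peak list per replicate. The design asked which genes vary with NAT10. The sources used here do not say whether a replicate was a culture of its own, so p-values here speak of the scatter of these samples alone, and that scatter may be technical.

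Most ZNF genes encode proteins with arrays of C2H2 zinc fingers, small folds held by a zinc ion that lie in the groove of DNA and read its sequence. Many carry a KRAB domain as well, which recruits the scaffold TRIM28 (KAP1) and, through it, the histone methyltransferase SETDB1 to silence chromatin, often over transposable elements. The family grew by tandem duplication, and much of it lies in clusters on chromosome 19, where neighbouring genes resemble each other. In acRIP-seq, RNA fragments that hold N4-acetylcytidine (ac4C) are pulled down with an antibody, and a peak is a stretch where the pulldown is enriched over background. ZNF is a symbol root that also includes genes of other kinds, such as the actin-binding LIM protein gene ZNF185. The annotation in the deposited lists describes 356 of the 358 genes as a zinc finger protein. It gives DNA binding for 336 of the 358, metal ion binding for 339, regulation of transcription for 341 and RNA binding for 10.

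The lists held 12157, 12119 and 3105 peaks in overexpression lists 1, 2 and 3, and 4324, 19261 and 10838 in control lists 1, 2 and 3. Overexpression replicate 3 and control replicate 1 were the shortest, and read depth is unknown for all 6. NAT10 had 14, 14 and 15 peaks in the overexpression lists, against 1, 2 and 2 in the control lists. Keratinocyte markers had a peak in some list for 12 of 12 genes, against 2 of 6 fibroblast, 3 of 6 melanocyte and 1 of 6 immune markers. Of all protein-coding genes not named ZNF, 53.4% had a peak in some list, which is near the melanocyte share. The lowest false discovery rate of any peak, read as percent, was 29.28, and no peak was listed below that value.

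Shown first are the ZNF transcript starts that had a peak at their first 50 bases in 4 or 5 lists. Their peaks are the most repeated for which a reference sequence was at hand. A peak was counted there if it overlapped the first 50 transcribed bases of any RefSeq start of its gene. The sequences are from RefSeq (GRCh38.p14), written 5′ to 3′ on the strand of the gene. Lower case is the 120 bases before the start, and the capitals are the first 30 transcribed bases. The printed bases are those of the start and not of the peaks. At ZNF367 the peaks ended at 96418329, outside the printed stretch. At ZNF12, ZNF106, ZNF622 and ZNF787 they held at most a part of the capitals.
ZNF12: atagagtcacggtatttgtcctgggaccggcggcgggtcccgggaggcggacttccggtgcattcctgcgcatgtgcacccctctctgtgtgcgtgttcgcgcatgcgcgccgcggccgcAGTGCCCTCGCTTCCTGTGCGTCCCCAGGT
ZNF367: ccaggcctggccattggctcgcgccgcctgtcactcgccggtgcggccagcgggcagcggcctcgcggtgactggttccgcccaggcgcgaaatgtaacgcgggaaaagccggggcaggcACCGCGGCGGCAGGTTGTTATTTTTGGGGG
ZNF106: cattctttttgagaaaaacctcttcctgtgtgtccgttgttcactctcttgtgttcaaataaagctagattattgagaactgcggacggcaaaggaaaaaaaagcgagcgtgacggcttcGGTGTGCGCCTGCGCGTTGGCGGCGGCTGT
ZNF622: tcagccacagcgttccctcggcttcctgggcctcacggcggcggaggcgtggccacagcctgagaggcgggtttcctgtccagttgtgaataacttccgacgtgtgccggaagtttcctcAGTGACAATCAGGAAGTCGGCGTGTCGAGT
ZNF296: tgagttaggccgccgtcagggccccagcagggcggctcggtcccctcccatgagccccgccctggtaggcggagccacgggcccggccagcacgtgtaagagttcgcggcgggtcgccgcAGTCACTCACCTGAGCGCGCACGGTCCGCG
ZNF787: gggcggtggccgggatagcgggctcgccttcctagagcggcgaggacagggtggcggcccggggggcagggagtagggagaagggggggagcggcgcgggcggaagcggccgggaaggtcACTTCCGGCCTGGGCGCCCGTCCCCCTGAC

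All 6 genes lie on the minus strand. The ZNF12 sequence is chr7:6706918-6707067, ZNF367 is chr9:96418341-96418490 and ZNF106 is chr15:42491112-42491261. ZNF622 is chr5:16465771-16465920, ZNF296 is chr19:45076449-45076598 and ZNF787 is chr19:56121266-56121415. The G and C content of these 150 bases was 68.0% at ZNF12, 70.7% at ZNF367, 49.3% at ZNF106, 61.3% at ZNF622, 74.0% at ZNF296 and 77.3% at ZNF787. The 30 capitals held 12 cytidines at ZNF12, 5 at ZNF367, 8 at ZNF106, 5 at ZNF622, 12 at ZNF296 and 15 at ZNF787. The starts thus shared no one base composition. A repeat of cytidine followed by any pair of bases, CNNCNNCNNCNN, has been linked to ac4C in other data. On the transcribed strand it was found in the first 50 bases of 31.6% of 114 windows of ZNF genes with a peak at a start. It was found in 29.7% of the 563 windows of all RefSeq ZNF genes and in 29.7% of the 22199 windows of protein-coding genes. On the other strand the shares were 43.0%, 41.9% and 42.1% of the same 3 sets. The letters were thus about as common at starts of ZNF genes that had a start peak as at starts of all ZNF genes or all protein-coding genes.

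The 5′ end of ZNF12, a KRAB zinc finger gene, held a peak in every list, which was counted as a start peak in 5. None of these peaks reached the first transcribed base, 6706947. The gene spans chr7:6688433-6706947. The peaks there had a fold (the authors' linear enrichment of pulldown over background) of 6.97, 6.79 and 16.51 in overexpression lists 1, 2 and 3, against 17.88, 17.54 and 7.61 in control lists 1, 2 and 3. The ranges of the groups overlapped. The peak of overexpression replicate 1 ended at 6706654, too far from the start to be counted as a start peak. In overexpression replicate 2 and control lists 1 and 3 the peak had identical ends, chr7:6706432-6706923, and a length of 492 bases. The bases from 6706477 to 6706654, 178 in all, were covered in every list. ZNF12 was the only one of the 358 genes with a base covered in all 6 lists.

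ZNF367 had a start peak with a fold of 10.3 and 5.21 in overexpression lists 1 and 2, against 7.5, 18.9 and 6.92 in control lists 1, 2 and 3. ZNF106, which encodes an RNA-binding protein, had folds of 5.63 and 5.91 at its start in overexpression lists 1 and 2, against 13.1 and 7.75 in control lists 2 and 3. ZNF622, a factor that matures the large ribosomal subunit in the cytoplasm, had 6.85 and 4.90 in overexpression lists 1 and 2, against 4.56 and 7.15 in control lists 1 and 3. None of these 3 starts had a peak in overexpression replicate 3, the shortest list. ZNF296 had a start fold of 3.27 in overexpression replicate 3, against 13.3, 6.56 and 10.25 in the control lists. These 4 peaks also lay over the span of its neighbour GEMIN7, so they may not be peaks of ZNF296. ZNF787 had 8.65 and 4.82 in overexpression lists 1 and 2, against 14.3 and 7.5 in control lists 2 and 3. At ZNF106 and over the start of ZNF296 each control fold was above each overexpression fold, and at the other starts the ranges overlapped.

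The number of ZNF peaks and of ZNF genes followed the length of the list and did not separate the groups. There were 299, 291 and 80 ZNF peaks in overexpression lists 1, 2 and 3, against 86, 425 and 232 in control lists 1, 2 and 3. The means were 223 ± 124 in overexpression and 248 ± 170 in control lists (SD, n = 3 each), a log2 difference of -0.09 (two-sided exact permutation test, p = 0.9). The genes with a ZNF peak numbered 177, 187 and 63 in the overexpression lists, against 68, 228 and 161 in the control lists. Their means were 142 ± 68.9 and 152 ± 80.4 (SD, n = 3 each), a log2 difference of -0.09 (exact permutation p = 0.9). In both measures the spread within a group was far larger than the difference. With 3 lists against 3 the smallest p this test can give is 0.1, so no comparison of the groups could pass 0.05.

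As a share of the list, ZNF peaks stood higher in each overexpression list than in any control list. They made up 2.46%, 2.40% and 2.58% of the peaks in overexpression lists 1, 2 and 3, against 1.99%, 2.21% and 2.14% in control lists 1, 2 and 3. The means were 2.48% ± 0.0893 and 2.11% ± 0.112 (SD, n = 3 each), a difference of 0.367 percentage points. The exact permutation p was 0.1, the smallest possible, and 0.5 after Benjamini-Hochberg adjustment over 10 comparisons of the groups. This measure was chosen after its values were seen, and among the 3105 peaks of highest score in each list the difference was 0.0966 percentage points (exact permutation p = 0.9). The share among genes with a peak overlapped between groups, with 3.05%, 3.14% and 2.73% in overexpression and 2.17%, 2.88% and 2.70% in control lists. Its means were 2.98% ± 0.216 and 2.58% ± 0.371 (SD, n = 3 each, exact permutation p = 0.2).

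**Figure D1:**
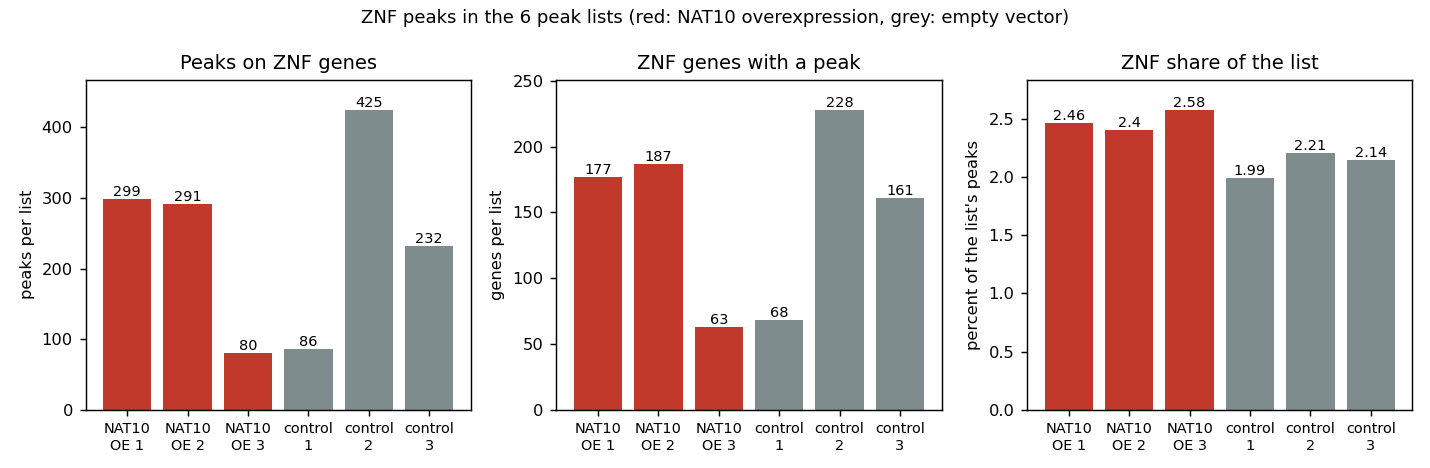
Number of ZNF peaks, number of ZNF genes with a peak and percent of the list's peaks on ZNF genes, 1 bar for each of the 6 peak lists (red for NAT10 overexpression, grey for empty vector). Counts run from 80 to 425 peaks and differ more within a group than between groups, while the percent is 2.40 or more in every overexpression list and 2.21 or less in every control list.

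The fold of ZNF peaks was lower in the overexpression lists. Its median was 6.87, 6.84 and 6.94 in overexpression lists 1, 2 and 3, against 7.89, 8.92 and 7.115 in control lists 1, 2 and 3. The groups did not overlap. The means of these medians were 6.88 ± 0.0513 and 7.98 ± 0.905 (SD, n = 3 each), a log2 difference of -0.21 (exact permutation p = 0.1, adjusted p = 0.5 over 10). Among peaks with a score of at least 100 the log2 difference was -0.02 (exact permutation p = 1). The highest fold of a ZNF peak was 34.5, 31.9 and 36.0 in the overexpression lists, against 27.0, 76.9 and 27.6 in the control lists, so control replicate 2 alone held the strongest peaks. The median of all other peaks was 6.29, 6.39 and 7.20 in the overexpression lists, against 7.195, 6.79 and 6.57 in the control lists.

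Peaks on ZNF genes were longer than those on other genes in all 6 lists, and fewer per gene. Their median length was 241, 253 and 232.5 bases in overexpression lists 1, 2 and 3 and 256.5, 233 and 246.5 bases in control lists 1, 2 and 3. The other peaks of the same lists had medians of 176, 188 and 154 bases in the overexpression lists and 228, 155 and 196 bases in the control lists. The ZNF medians thus lay close together while the others varied with the list. The mean log2 difference was 0.43 ± 0.16 (SD, n = 6 lists), or a ratio of 1.34. The two-sided exact paired permutation p was 0.031, the smallest that 6 lists can give, and 0.0536 after adjustment over the 12 comparisons made within lists. So this difference had the same direction in each list and missed 0.05 after adjustment. The excess in length was 0.49 in overexpression and 0.36 in control lists on the log2 scale (exact permutation p = 0.4).

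Long peaks were also more frequent on ZNF genes in 5 of 6 lists, a difference that was not tested. Peaks of at least 1000 bases made up 6.35%, 11.3% and 0% of ZNF peaks in overexpression lists 1, 2 and 3, against 11.6%, 3.76% and 9.05% in control lists 1, 2 and 3. Of the peaks on other genes they made up 3.85%, 4.89% and 0.264% in the overexpression lists, against 4.72%, 2.02% and 4.31% in the control lists. The exception, overexpression replicate 3, had no ZNF peak longer than 593 bases, while ZNF peaks of up to 6653, 4730, 3015, 1950 and 6005 bases stood in the other lists. Genes of other zinc finger symbol roots (ZFP, ZSCAN, ZKSCAN and ZBTB, 269 peaks on 64 genes) had longer peaks still. Their medians were 250, 383.5 and 243.5 bases in the overexpression lists and 258.5, 265 and 258 bases in the control lists, so ZNF peaks were the shorter in 6 of 6 lists (ratio 0.893, exact paired permutation p = 0.031, adjusted p = 0.0536). Greater length was therefore not particular to the ZNF symbol.

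A ZNF gene with a peak had 1.69, 1.56 and 1.27 peaks on average in overexpression lists 1, 2 and 3, and 1.26, 1.86 and 1.44 in control lists 1, 2 and 3. Other genes had 2.11, 2.05 and 1.35 in the overexpression lists and 1.38, 2.45 and 1.83 in the control lists. The ZNF value was the lower in 6 of 6 lists, with a mean log2 difference of -0.28 ± 0.14 (SD, n = 6) and a ratio of 0.824 (exact paired permutation p = 0.031, adjusted p = 0.0536). The difference was -0.27 in overexpression and -0.29 in control lists (exact permutation p = 0.8). The other zinc finger symbol roots had 1.56, 1.73 and 1 peaks per gene in the overexpression lists and 1.18, 1.89 and 1.39 in the control lists, also below other genes in each list, so a low number was not particular to the ZNF symbol. The fold of ZNF peaks was above that of other peaks in 5 of 6 lists, with a mean log2 difference of 0.14 ± 0.14 (SD, n = 6, exact paired permutation p = 0.062, adjusted p = 0.0833). Overexpression replicate 3 was the exception.

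**Figure D2:**
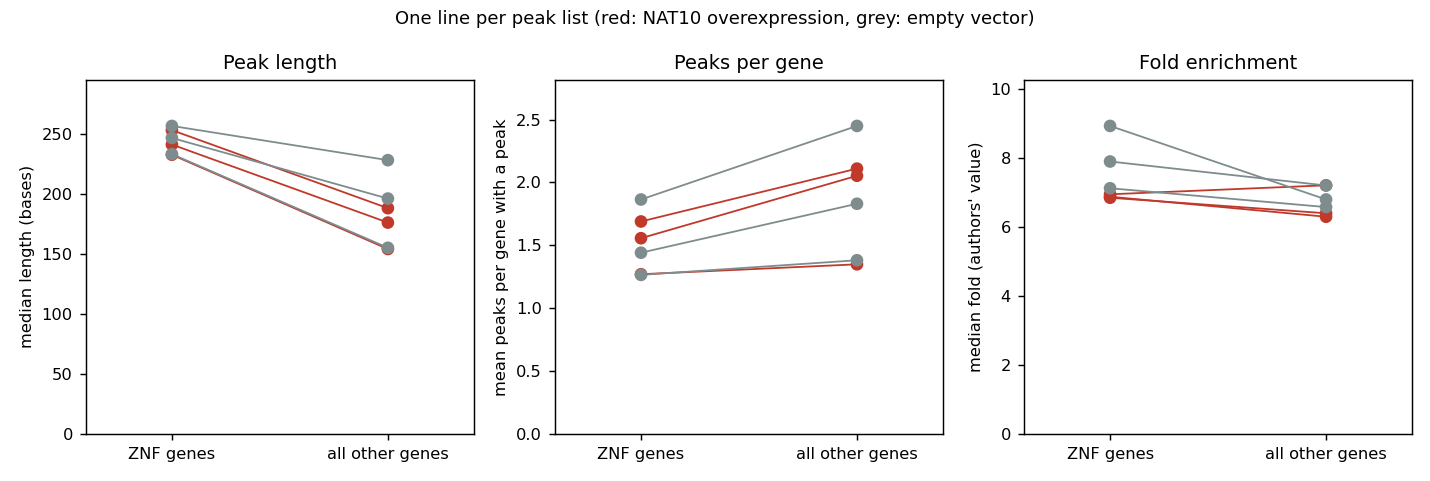
Median peak length in bases, mean number of peaks per gene with a peak and median fold, for peaks on ZNF genes and on all other genes, with 1 line per list (red for NAT10 overexpression, grey for empty vector). Length falls and peaks per gene climb towards the other genes in all 6 lists, and fold is higher for ZNF genes in 5 of 6.

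Along the gene, ZNF peaks lay more often near the end. The centre of a peak could be placed on the RefSeq span of its gene, introns included, for 1166 ZNF peaks. The last 20% of the span held 30.7%, 29.3% and 28.1% of them in overexpression lists 1, 2 and 3, and 27.8%, 34.5% and 33.2% in control lists 1, 2 and 3. Of the other peaks it held 27.7%, 26.5% and 25% in the overexpression lists and 19.4%, 29.6% and 24.0% in the control lists. The ZNF share was higher in 6 of 6 lists, by 5.23 ± 2.87 percentage points (SD, n = 6, exact paired permutation p = 0.031, adjusted p = 0.0536). The excess was 2.98 points in overexpression and 7.47 points in control lists (exact permutation p = 0.1). In C2H2 genes the last exon usually encodes the whole finger array, but exons were not used here. The first 10% of the span held 20.9%, 23% and 29.7% of ZNF peaks in the overexpression lists and 34.7%, 16.8% and 30.6% in the control lists, which was above other peaks in 4 of 6 lists (exact paired permutation p = 0.25, adjusted p = 0.273). The start itself ran the other way. Of the ZNF peaks of genes with a start window, 8.87%, 14.5% and 9.09% overlapped the first 50 transcribed bases in the overexpression lists, and 23%, 5.60% and 16.2% in the control lists. Of the other peaks 13%, 14.2% and 11.7% did so in the overexpression lists, and 28.2%, 9.73% and 20.4% in the control lists. The ZNF share was thus the lower in 5 of 6 lists, a difference that was not tested.

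**Figure D3:**
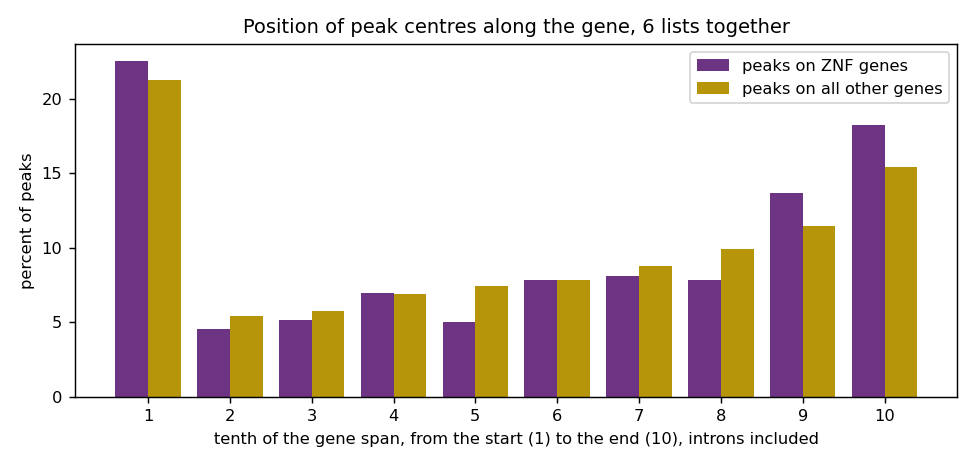
Percent of peaks whose centre fell in each 10% of the RefSeq gene span, from the start to the end with introns included, for ZNF genes and all other genes, all 6 lists together. Both sets have most peaks in the first 10%, and ZNF peaks stand above the others in the last 20%.

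On chromosome 19, a smaller share of ZNF genes had a peak than elsewhere. That chromosome held 456 of the ZNF peaks and 165 of the 358 genes. RefSeq lists 517 protein-coding ZNF genes, 250 of them on chromosome 19. Of these 250, a peak was found on 27.2%, 26.0% and 10% in overexpression lists 1, 2 and 3, and on 8%, 37.6% and 26.8% in control lists 1, 2 and 3. Of the 267 on other chromosomes the shares were 40.1%, 45.7% and 13.9% in the overexpression lists and 18%, 50.2% and 35.2% in the control lists. The chromosome 19 genes were lower in 6 of 6 lists, by 11.2 ± 5.29 percentage points (SD, n = 6, exact paired permutation p = 0.031, adjusted p = 0.0536). The gap was 12.1 points in overexpression and 10.3 points in control lists (exact permutation p = 0.7). Genes not named ZNF ran the other way, with a share on chromosome 19 that was higher than elsewhere in 5 of 6 lists, by 4.25 ± 2.72 points (exact paired permutation p = 0.062, adjusted p = 0.0833).

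The chromosome 19 contribution overlapped between the groups. Chromosome 19 held 38.4%, 34.8% and 39.7% of the ZNF genes with a peak in overexpression lists 1, 2 and 3, against 29.4%, 41.2% and 41.0% in control lists 1, 2 and 3. The means were 37.6% ± 2.56 and 37.2% ± 6.76 (SD, n = 3 each), a difference of 0.409 percentage points (exact permutation p = 1). Without control replicate 1, which had 20 such genes, the difference was -3.49 points (exact permutation p = 0.2). ZNF genes of chromosome 19 also had fewer peaks each, with 1.44, 1.23 and 1.08 in the overexpression lists and 1.20, 1.54 and 1.24 in the control lists. ZNF genes elsewhere had 1.84, 1.73 and 1.39 in the overexpression lists and 1.29, 2.09 and 1.58 in the control lists (ratio 0.784, lower in 6 of 6, exact paired permutation p = 0.031, adjusted p = 0.0536). Median fold was higher on chromosome 19 in 3 lists and lower in 3 (exact paired permutation p = 0.844), and median length was higher in 6 of 6 by a ratio of 1.04 (p = 0.031, adjusted p = 0.0536).

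Within chromosome 19 the clusters differed. Genes were put in 1 cluster while gaps stayed at or below 1 Mb. In any list, 43 of 84 ZNF genes on the short arm side (51.2%) and 123 of 166 on the long arm side (74.1%) had a peak. The share was the lower on the short arm side in every list, for example 21.4% against 30.1% in overexpression replicate 1 and 23.8% against 44.6% in control replicate 2. The lowest share among the clusters of 10 genes or more was in the cluster from ZNF101 to ZNF254 (chr19:19668153-24129968), next to the centromere, where 13 of 37 genes (35.1%) had a peak. That cluster holds many KRAB genes of recent primate origin that are close copies of each other, for which the assignment of reads is uncertain, and its part in the low share was not tested. The cluster from ZNF575 to ZNF296 (chr19:43530835-45076478) had a peak on 21 of 24 genes (87.5%), and the terminal cluster from ZNF628 to ZNF446 (chr19:55476617-58489533) on 50 of 60 (83.3%). Between them lay the cluster from ZNF175 to ZNF331, with 28 of 41 (68.3%). In the terminal cluster 27, 24 and 8 genes had a peak in the overexpression lists, against 8, 34 and 26 in the control lists. The counts of the groups overlapped in every cluster.

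**Figure D4:**
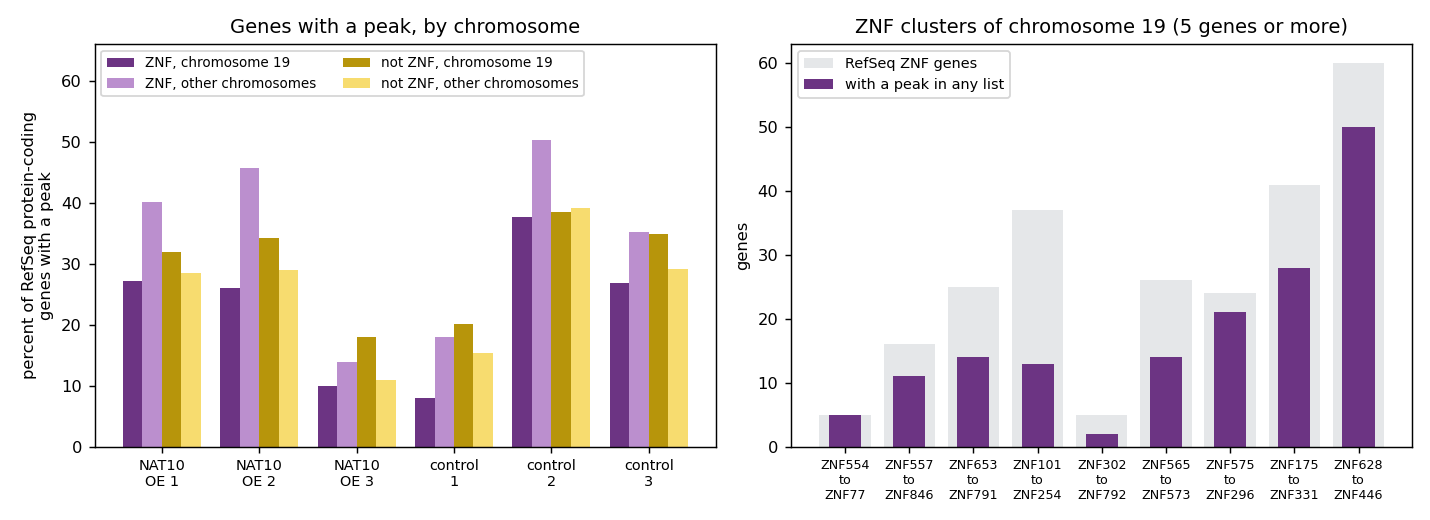
Left, percent of RefSeq protein-coding genes with a peak in each list, for ZNF genes on chromosome 19 and on other chromosomes and for genes not named ZNF on both. Right, ZNF genes in each chromosome 19 cluster of 5 or more genes along the chromosome (grey) and how many had a peak in any list (purple), with 13 of 37 in the cluster from ZNF101 to ZNF254 and 50 of 60 in the last.

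Away from chromosome 19, chromosome 7 had peaks on 25 of its 35 RefSeq ZNF genes and 147 ZNF peaks, and chromosome 16 on 24 of 30, with 119 peaks. On chromosomes 11, 14 and 15 each ZNF gene had a peak, 6 of 6, 3 of 3 and 7 of 7. The 7 genes of chromosome 15 carried 66 peaks. In all, 357 of the 517 RefSeq ZNF genes (69.1%) had a peak in some list, against 53.4% of 19520 other protein-coding genes. Within single lists the difference was 2.81 ± 3.48 percentage points (SD, n = 6, exact paired permutation p = 0.156, adjusted p = 0.188).

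Recurrence across lists was read against all 10870 genes with a peak. ZNF652, a repressor that acts with the corepressor CBFA2T3, was the one ZNF gene with a peak in 3 overexpression and 0 control lists. That is 0.279% of the 358, against 0.267% of all genes with a peak. ZNF575, ZNF829, ZNF41 and ZNF644 had a peak in 3 control and 0 overexpression lists, 1.1% of the 358 against 1.09% of all genes. Both shares were near those of all genes. The shortest list of each group set these counts: without overexpression replicate 3 there were 8 genes of the first kind, and without control replicate 1 there were 22 of the second. Leaving a list out asks for a peak in fewer lists, and the share of all genes that then qualify is not given here. The 8 and 22 are thus not read as a result about ZNF genes. For each of the 5 genes the exact permutation p of the number of peaks was 0.1. Choosing the genes by this pattern fixed that value in advance, so it adds no evidence.

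ZNF652 (chr17:49288117-49362473) had 3, 1 and 1 peaks in the overexpression lists, against 0 in each control list. Its highest folds were 7.30, 5.93 and 5.94. The peaks did not share a place: 1 of overexpression replicate 1 and the peak of replicate 2 had the same ends, chr17:49361909-49362116, while that of replicate 3 lay at chr17:49317500-49317769, where it overlapped another peak of replicate 1. ZNF644, a partner of the histone methyltransferases G9a and GLP, had 0 peaks in the overexpression lists, against 1, 1 and 2 in the control lists, with highest folds of 6.47, 3.89 and 7.67. ZNF41, a KRAB gene on chromosome X, had 0 against 1, 1 and 1, with folds of 7.80, 4.56 and 11.1 at places that were not all the same.

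ZNF575 had 0 peaks in the overexpression lists, against 2, 1 and 1 in the control lists. In control lists 1 and 2 a peak began at chr19:43525497, outside the RefSeq span of ZNF575 (43530835 to 43536087) and inside that of ETHE1, a mitochondrial sulfur dioxygenase gene. For control replicate 2 it was the only peak given to ZNF575, so within the span the gene had a peak in control lists 1 and 3. ZNF829, a KRAB gene, had 0 peaks in the overexpression lists, against 1, 1 and 1 in the control lists, with folds of 11.7, 22.7 and 7.74. All 3 lay within the span of the neighbouring ZNF345 too. Over all lists, 77 ZNF peaks (5.45%) on 36 genes overlapped the span of another protein-coding gene. The sources used here do not say whether strand was used, so the reads of such overlapping genes cannot be told apart.

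In all 6 lists, 13 ZNF genes had a peak, 3.63% of the 358 against 6.23% of all genes. A peak in more overexpression than control lists was found for 127 ZNF genes (35.5%, against 25.6% of all genes). A peak in more control than overexpression lists was found for 134 (37.4%, against 46.3% of all genes). The ZNF genes thus stood nearer to balance than all genes did. A peak was found in overexpression lists only for 70 genes (19.6%, against 13.5% of all genes), in control lists only for 78 (21.8%, against 23.6%) and in both for 210 (58.7%, against 62.9%). The median number of lists was 2 for ZNF genes and 3 for all genes, and 107 ZNF genes (29.9%, against 28.6% of all genes) had a peak in 1 list. On chromosome 19 that was 65 of 165 genes (39.4%), against 42 of 193 (21.8%) on other chromosomes.

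**Figure D5:**
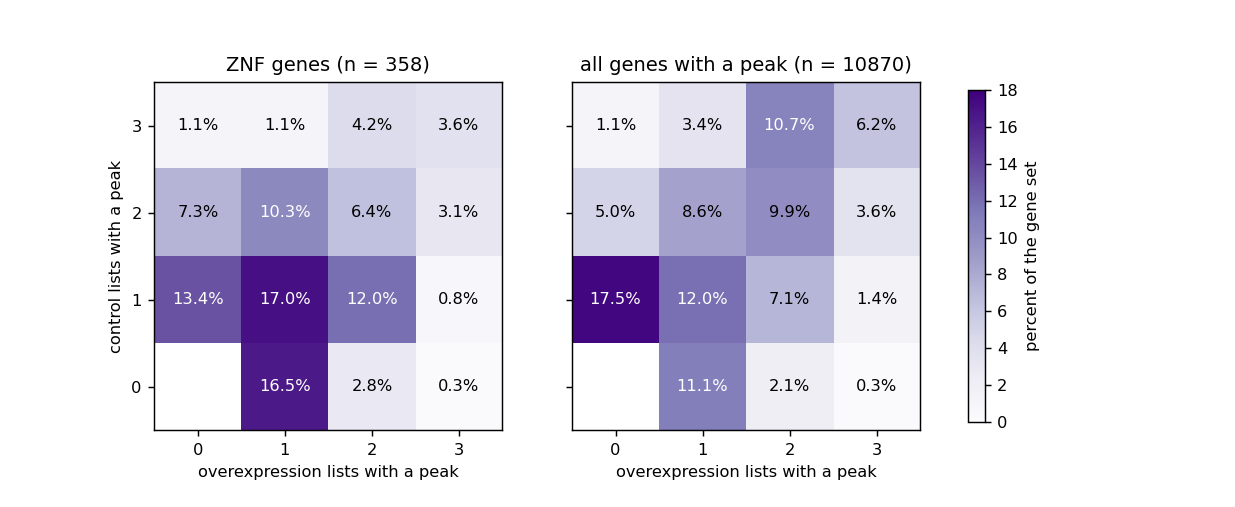
Percent of genes by the number of overexpression lists (horizontal) and control lists (vertical) in which they had a peak, for the 358 ZNF genes and for all 10870 genes with a peak. ZNF genes have 0.3% in the corner of 3 overexpression and 0 control lists and 1.1% in the opposite corner, the same as all genes at this rounding, and 3.6% against 6.2% in all 6 lists.

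The genes with a peak in all 6 lists were ZNF710, ZNF316, ZNF236, ZNF12, ZNF516, ZNF787, ZNF628, ZNF395, ZNF219, ZNF747, ZNF618, ZNF704 and, beyond the 12 that the naming rule takes, ZNF282. ZNF710 (chr15:89998307-90082191) had the highest fold of these genes in its weakest list. It had 3, 2 and 2 peaks in the overexpression lists, against 2, 3 and 3 in the control lists, and highest folds of 8.35, 10.5 and 12.5 against 12.3, 25.7 and 15.0. Its highest control folds lay above its highest overexpression folds but for 1 pair, 12.5 against 12.3. These folds came from different places, so they do not compare the groups at 1 site. Only the 10.5 of overexpression replicate 2 and the 12.3 and 15.0 of control lists 1 and 3 shared a place, chr15:90001392-90001614. ZNF316 (chr7:6637318-6658279) had 5, 3 and 3 peaks in the overexpression lists, against 1, 3 and 2 in the control lists (exact permutation p = 0.3). Its longest peak, chr7:6652303-6656432, ran over 4130 bases with identical ends in overexpression replicate 2 and control replicate 3. ZNF747 was found in overexpression replicate 2 only at chr16:30531228-30532731, which also lay over the span of ZNF768.

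The same gene in 6 lists was seldom the same place. A position was a run of overlapping peaks of 1 gene over all lists, with at least 1 base shared. There were 952 ZNF positions, and 261 (27.4%) were covered in 2 or more lists, against 32.5% of all 38634 positions. On chromosome 19 that was 64 of 340 (18.8%), against 197 of 612 (32.2%) on other chromosomes. Positions in all 6 lists numbered 2, at ZNF12 and ZNF628, or 0.210% against 0.554% of all positions. ZNF628 (chr19:55476617-55484487) had its peaks chained over chr19:55481197-55484487, with no base in all 6 lists.

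Positions in 5 lists numbered 15. Positions in at least 5 lists, which adds ZNF12 and ZNF628, were 17 of 952, or 1.79%, against 3.38% of all positions, so ZNF positions had the lower share. Some were repeated with the same ends. In ZNF704 the peak chr8:80873544-80873665, of 122 bases, had the same ends in 5 lists. Its fold was 9.57 and 15.9 in overexpression lists 1 and 2, against 22.8, 26.3 and 24.1 in the control lists, with no overlap between the lists that had it. In ZNF395 the place chr8:28359592-28359824 had folds of 12.75 and 12.1 in overexpression lists 1 and 2, against 10.3, 13.1 and 11.4 in the control lists, which overlapped. ZNF697 had a peak in 5 lists at chr1:119647691-119647773, with folds of 8.34, 10.03 and 18 in the overexpression lists, against 11.2 and 13.1 in control lists 2 and 3. ZNF639 had one at chr3:179322991-179323291, with 15.0, 17.5 and 8.51 in the overexpression lists, against 25.3 and 9.56 in control lists 1 and 3. ZNF697 and ZNF639 here, and ZNF367 and ZNF296 among the starts, were picked after their values were seen.

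At the level of positions, 1 of 952 (0.105%) was covered in 3 overexpression and 0 control lists, in ZNF771, against 0.163% of all positions. The shared bases were chr16:30418355-30418604, and the peaks had folds of 8.41, 3.57 and 5.73. ZNF771 also had a peak elsewhere in control lists 2 and 3, so it was not counted by gene. That of control replicate 2 lay outside the RefSeq span of ZNF771 and over that of DCTPP1. The position in 3 control and 0 overexpression lists was in ZNF326 (also 0.105%, against 0.575% of all positions), which encodes a subunit of the DBIRD complex that ties RNA polymerase II elongation to splicing. Its peaks began at chr1:90027354 in each control list and had folds of 27.0, 9.5 and 5.78 in control lists 1, 2 and 3. ZNF326 had 2 other peaks in overexpression replicate 1.

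Among ZNF genes with roles in RNA and translation, 7 of 8 had a peak, where 69.1% of all RefSeq ZNF genes and 53.4% of other protein-coding genes did. Of these, 2 had it in more overexpression lists, 3 in more control lists and 2 in equally many. Over all genes with a peak those shares were 25.6%, 46.3% and 28.1%, and lists this small do not show a departure from them. ZNF598, the ubiquitin ligase that senses collided ribosomes, had 1 peak each in overexpression lists 1 and 2, against 1 each in control lists 1 and 2. Its folds were 10.6 and 22.8 in overexpression, against 11.2 and 26.2 in control lists, with much overlap. ZNF622 had 3, 1 and 0 peaks in the overexpression lists, against 3, 1 and 3 in the control lists. ZNF106 had 3, 3 and 0 in the overexpression lists, against 4, 9 and 3 in the control lists (means 2 ± 1.73 and 5.33 ± 3.21, SD, n = 3 each, exact permutation p = 0.3). ZNF346, which binds double-stranded RNA, had 1, 2 and 0 against 0, 2 and 0. ZNF638, a nuclear protein that silences unintegrated retroviral DNA, had 0, 1 and 0 against 0, 4 and 0, and ZNF830, found in spliceosomes, had 1 peak, in overexpression replicate 1. ZNF207 had none in any list, which in lists without depth does not show that it lacks the mark.

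Of the 4 genes with roles in epithelium and keratinocytes, 3 had a peak, where 69.1% of all RefSeq ZNF genes did. Of the 3, 0 had it in more overexpression lists, 2 in more control lists and 1 in equally many. Over all genes with a peak those shares were 25.6%, 46.3% and 28.1%, and so few genes do not show a departure from them. ZNF185 on chromosome X, which binds actin and is made in differentiating keratinocytes, had the most peaks of any ZNF gene, 23. There were 9, 4 and 0 in the overexpression lists, against 2, 2 and 6 in the control lists (exact permutation p = 0.8). At chrX:152945267-152945464 the peak had the same ends in 4 lists, and its fold was 9.78 and 8.95 in overexpression lists 1 and 2, against 6.98 and 12.1 in control lists 1 and 3. ZNF750, a driver of epidermal differentiation, had 0, 3 and 0 peaks in the overexpression lists, against 0, 1 and 1 in the control lists. All of these peaks lay within the span of TBCD, and 1 of the 3 in overexpression replicate 2 lay outside that of ZNF750. ZNF703, a corepressor of the NET family, had 3, 3 and 0 against 0, 3 and 1, and ZNF217 had none.

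In general transcription and chromatin, 14 of 15 genes had a peak, where 69.1% of all RefSeq ZNF genes did. Of the 14, 4 had it in more overexpression lists, 7 in more control lists and 3 in equally many, near the 25.6% and 46.3% of all genes. ZNF335, a subunit of a histone methyltransferase complex, had 4, 4 and 1 peaks in the overexpression lists, against 0, 7 and 2 in the control lists. ZNF592 and ZNF687 sit in 1 complex with the reader ZMYND8. ZNF592 had 1, 1 and 2 peaks against 0, 4 and 1, and ZNF687 had 1, 1 and 0 against 0, 2 and 0. ZNF827, which brings the NuRD remodeller to telomeres, had 1, 3 and 3 peaks in the overexpression lists, against 1, 3 and 0 in the control lists, and its fold of 36.0 in overexpression replicate 3 was the highest of the ZNF peaks of that list. The 3 peaks of control replicate 2, that of overexpression replicate 1 and 1 of overexpression replicate 2 also lay over the span of C4orf51. ZNF410, an activator of the NuRD gene CHD4, had 0 against 0, 1 and 1. ZNF143, which activates many promoters, had 0, 2 and 0 against 0, 3 and 2, and ZNF462 had 1, 2 and 0 against 1, 8 and 0. ZNF281 had none.

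Of the KRAB repressors with studied targets, 6 of 9 had a peak, near the 69.1% of all RefSeq ZNF genes. Of the 6, 2 had it in more overexpression lists, 2 in more control lists and 2 in equally many. Over all genes with a peak those shares were 25.6%, 46.3% and 28.1%, and a list this small does not show a departure from them. ZNF91, which silences SVA transposons, had 1, 1 and 0 peaks in the overexpression lists, against 0, 2 and 0 in the control lists. ZNF445, which guards genomic imprints, had 2, 2 and 0 against 0, 1 and 1. ZNF202, a repressor of lipid metabolism genes, had 0, 3 and 0 against 1, 0 and 3. ZNF274, which recruits SETDB1, had 0 against 0, 1 and 1, while ZNF268 had 0, 1 and 1 against 0. ZNF10 (KOX1), whose KRAB domain is used in synthetic repressors, had 0, 2 and 0 against 0, 0 and 1. ZNF93, ZNF85 and ZNF382 had none. Each of these lists of genes split in both directions, or held no more than 3 genes with a peak.

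The partners through which KRAB proteins silence chromatin carried peaks in both groups. A peak was found for 14 of the 17 symbols, where 53.4% of protein-coding genes not named ZNF had one in some list. It was in more overexpression lists for 2, more control lists for 6 and equally many for 6, where all genes had 25.6%, 46.3% and 28.1%. One partner, FAM208A, stands in these 17 under its newer symbol TASOR as well. TRIM28 had 1, 0 and 0 peaks in the overexpression lists, against 0, 1 and 0 in the control lists. SETDB1 had 1, 3 and 0 against 0, 3 and 0. MORC2 had 3, 1 and 1 against 1, 5 and 2, and MPHOSPH8 of the HUSH complex had 3, 4 and 1 against 2, 4 and 2, so both were found in all 6 lists. CBX3 and PPHLN1 had none.

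The highest folds of single ZNF peaks were all in control replicate 2, the longest list. ZNF512B on chromosome 20 led with a fold of 76.9 over 171 bases at chr20:63963095-63963265, and no other list had a peak there. ZNF225 followed with 53.5, ZNF600 with 51.0, ZNF703 with 48.3, and ZNF155 and ZNF33A with 47.9 each. In the other lists the highest fold of ZNF512B was 10.2 and 7.26 in overexpression lists 1 and 2, and 12.9 in control replicate 1. ZNF225 had 9.53 in overexpression replicate 1 and 6.77 in control replicate 3, ZNF155 had 9.12 in overexpression replicate 2, and ZNF33A had 4.75 and 7.30 in overexpression lists 1 and 2. ZNF600 had peaks in control replicate 2 alone. None of these 6 folds was thus reached in another list. The places of the top peaks of ZNF225, ZNF703, ZNF155 and ZNF33A were covered again, at lower folds. At that of ZNF703 the fold was 13.2 and 7.65 in overexpression lists 1 and 2 and 7.26 in control replicate 3. It was 9.53 at ZNF225 in overexpression replicate 1, and 9.12 at ZNF155 and 7.30 at ZNF33A in overexpression replicate 2. After ZNF185, the most peaks were on ZNF106 with 22, ZNF618 with 19, ZNF335 and ZNF395 with 18 each, and ZNF316 with 17. ZNF618 had 5, 4 and 2 peaks in the overexpression lists, against 1, 2 and 5 in the control lists, and ZNF395 had 3, 2 and 1 against 3, 5 and 4 (exact permutation p = 0.2).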

How the data were processed

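The data were acRIP-seq peaks on mRNA in HaCaT cells, with groups and replicate numbers from the sample titles. The submitters' processing notes name the GRCh38 build, HISAT2 2.0.4, cutadapt 1.9.3 and FastQC. The names of the peaks carry MACS, with no version stated. Per the file headers, the authors' lists give for each peak its length, a linear fold ratio, a score (-10 times log10 of the p-value) and a false discovery rate. The authors' false discovery rate has no stated unit and was read as percent. The lowest deposited score was 50 and the lowest fold 2. The lists hold no read counts, so depth is unknown, and no interval for counting error can be given. In the deposited lists, starts count from 0, and 1 was added. Empty lines, 2 in overexpression replicate 2 and 3 in control replicate 2, were skipped.

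The members and gene lists were chosen with earlier results of these data known. Identifiers of 357 of the 358 genes matched RefSeq (GRCh38.p14), where ZNF720 has another symbol and HKR1 is now a ZNF gene. Each list gave 1 value. Groups were compared with a two-sided exact permutation test over 20 splits, and sets of genes within lists with an exact paired permutation test over 64 sign flips, with Benjamini-Hochberg adjustment and a threshold of 0.05. Both tests were tested on simulated data. Python 3.11.15, numpy 2.4.6, pandas 2.3.3, scipy 1.17.1 and matplotlib 3.10.9 were used. Named genes were up to 12 found in 3 lists of a group but in 0 of the opposite group, 12 in all 6 lists by their lowest highest fold, the 6 with most peaks, the 6 with the highest fold, those with a position in all lists, and the role lists. Alternatives were a fold of at least 4, a score of at least 100, equal numbers of peaks, each list left out, a replicate block, merged peaks, updated symbols, a shared base, and chromosome 19 apart. Peak sequences and proteins were not used here.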

Additional observations from a re-analysis of the deposited data

How the results depend on the processing

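No value compared between groups passed 0.05 under any setting, and none could. The smallest p of that test is 0.1 with all lists, and no lower with lists left out or with the replicate block. In log2 units, the difference in ZNF peaks per list turned from -0.09 to 0.0247 with a score of at least 100 and 0.105 with the 3105 best peaks of each list, and ran from -0.718 to 0.533 with each list left out in turn. For ZNF genes these values were -0.09, 0.0436 and 0.108, and -0.585 to 0.423. The chromosome 19 share of ZNF genes turned to -1.12 percentage points with a fold of at least 4 and to -4.52 without both shortest lists, and ran from -3.49 to 2.42 with each list left out. Genes in 3 overexpression and 0 control lists numbered 0 with a score of at least 100, 0 with a base shared by the group's lists, 1 to 8 with a list left out, and 8 without both shortest lists. Genes in 3 control and 0 overexpression lists numbered 2 among the best peaks, 0 with a shared base, 5 to 22 with a list left out, and 26 without both shortest lists. Where lists were left out, the pattern was a peak in all kept lists of a group and in 0 of the opposite group. Shares of all genes under these settings are not given here, so these counts of genes are not read as a result about ZNF genes. Within lists, all directions held. The fold of ZNF over other peaks was 0.191 in log2 units with a score of at least 100 (exact paired permutation p = 0.031). With 5 lists the smallest p is 0.062 and with 4 it is 0.125, so leaving lists out could not pass 0.05 by construction. With a list left out, and then without both shortest lists, the log2 difference in length was 0.394 to 0.479 and 0.450, that in peaks per gene was -0.317 to -0.255 and -0.365, the chromosome 19 gap in ZNF genes with a peak was -12.7 to -9.54 and -13.4 points, that in peaks per gene was -0.40 to -0.323 and -0.408, and the excess in the last 20% of the span was 4.43 to 5.71 and 4.97 points. Other settings with an exact p of 0.062 were length among the best peaks (0.332), peaks per gene outside chromosome 19 (-0.141) and, with a score of at least 100, peaks per gene on chromosome 19 (-0.259) and the last 20% (5.84). The causes were not tested. Replicate numbers did not pair the lists: correlations between the same numbers were -0.108, 0.0177 and -0.0912. With the replicate block the exact p was 1 for peaks, genes and the chromosome 19 share, and 0.25, the smallest possible, for the share of genes (0.393 points), the share of peaks (0.367 points) and the median fold (-0.21). Of 459 values for 51 single genes, 438 stayed within 1 SD and 33, over 18 genes, changed sign. Leaving out both shortest lists was chosen after seeing the data, as were all alternatives for the share of peaks, the chromosome 19 gaps and the last 20%.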
